A study of Mus musculus with 9 samples.

Results

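Type I interferon-stimulated antiviral genes were described across 9 kidney RNA-seq libraries from mice with pristane-induced lupus (PIL), Gsdmd-/- mice and controls. The genes were taken from a list of 42 symbols and matched to the gene name column of the count table. Of these, 41 were found among the 21935 genes of the table, all 41 passed the filter on low counts together with 14069 genes in all, and Mx2 is not analysed here. The 3 groups were GKO (Gsdmd-/-, 3 libraries), PIL (WT given pristane, 3 libraries) and Con (WT given saline, 3 libraries). All mice were C57BL/6, labelled female, and were injected once into the peritoneum with 0.5 ml of pristane oil or of saline at 4 weeks of age. Kidneys were taken 31 weeks later and RNA was isolated from whole tissue. Pristane is a hydrocarbon oil that causes a lupus-like disease in mice. GSDMD (gasdermin D) forms membrane pores during pyroptosis, and the knockout mice lack it in all tissues. In the labels, treatment is given as none for GKO as well as for Con, whereas the study's text describes the Gsdmd-/- mice as given pristane, so pristane in GKO rests on that text. WT mice are called littermates in the study's results and bought animals in its methods. It is not stated in the sources used here if the libraries are from different mice, and the spread between libraries may be partly technical.

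Type I interferons bind the receptor IFNAR on most cells. The receptor's kinases phosphorylate STAT proteins, among them STAT2, which joins IRF9 in ISGF3, the factor that binds the interferon-stimulated response element (ISRE) in the promoters of antiviral genes. The products of these genes tag proteins with ISG15, sense or degrade viral RNA, block viral entry or release, and feed back on the pathway itself. A raised level of such genes in blood is a well-known feature of lupus in people, and pristane is used in mice to study it.

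The promoters of the genes were searched first, because the ISRE is what ISGF3 recognises. The core GAAANNGAAA was searched on both strands in the 250 bases before each RefSeq start site (build GRCm38.p6), overlapping matches included. RefSeq windows were matched by symbol for 34 of the 41 genes, and 13 of them held at least 1 match (38.2%), against 3.46% of all 27025 genes with a window. The 13 were Isg15, Ifit1, Ifit3, Ifit3b, Oas1a, Oas1g, Oas3, Bst2, Stat2, Rsad2, Ddx60, Trim5 and Trim30a. The gamma-activated site core TTCNNNGAA was in 4 of the 34 (11.8%), namely Oas1a, Bst2, Isg20 and Ifit2, against 8.13% of all genes. A match of letters does not show that a factor binds.

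The stretches around the ISRE cores are shown for 10 of the 13 genes with a match, with the strand of the gene read 5′ to 3′ and the core in capitals (GAAANNGAAA, or its reverse complement where it lies on the other strand). Ddx60, Trim5 and Trim30a are not shown. Other genes of the results below, among them Ifitm3, Ube2l6, Uba7, Epsti1 and Samd9l, had a window without a core. They lie at chr4:156200855-156200916 for Isg15 (minus strand), chr19:34640765-34640833 for Ifit1 (plus), chr19:34583353-34583436 for Ifit3 (plus), chr19:34607749-34607832 for Ifit3b (plus), chr5:120907526-120907565 for Oas1a (minus), chr5:120887614-120887651 for Oas1g (minus), chr5:120777705-120777754 for Oas3 (minus), chr8:71537567-71537622 for Bst2 (minus), chr10:128270256-128270305 for Stat2 (plus) and chr12:26456543-26456592 for Rsad2 (minus).
Isg15: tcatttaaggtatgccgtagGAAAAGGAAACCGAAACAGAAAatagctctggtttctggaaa
Ifit1: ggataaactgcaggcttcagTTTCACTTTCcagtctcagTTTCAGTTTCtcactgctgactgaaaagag
Ifit3: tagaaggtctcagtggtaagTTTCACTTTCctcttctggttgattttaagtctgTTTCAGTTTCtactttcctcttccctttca
Ifit3b: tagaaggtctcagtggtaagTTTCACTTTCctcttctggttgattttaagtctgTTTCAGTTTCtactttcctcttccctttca
Oas1a: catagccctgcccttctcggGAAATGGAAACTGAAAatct
Oas1g: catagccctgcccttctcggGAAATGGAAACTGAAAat
Oas3: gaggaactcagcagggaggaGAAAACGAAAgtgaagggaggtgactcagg
Bst2: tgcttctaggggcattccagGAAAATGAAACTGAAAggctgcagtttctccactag
Stat2: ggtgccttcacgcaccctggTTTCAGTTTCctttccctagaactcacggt
Rsad2: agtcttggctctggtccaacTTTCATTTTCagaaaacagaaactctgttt
The Isg15 stretch held 3 overlapping cores. The shown stretches of Ifit3 and Ifit3b were the same at 84 of 84 bases, and those of Oas1a and Oas1g at 38 of 38. Only these promoter bases were compared, not the transcripts. Where the transcripts of a pair are also alike, the counting could split their reads. The separate values of Ifit3 and Ifit3b and of Oas1a and Oas1g are uncertain to that extent. Reads of Parp9 and Dtx3l, which overlap by 682 bases on opposite strands, and of Rtp4, which overlaps Masp1 by 525 bases on the opposite strand, may also be shared, since the sources used here do not say whether the counting used strand.

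Some facts of the whole series bear on the results. Totals ran from 13311063 to 16299328 counts per library. Levels are in CPM, that is, TMM-scaled counts relative to library size, unless FPKM is named. Gsdmd, the gene targeted in GKO, stood at 2.06, 2.04 and 1.61 CPM in GKO (24 to 30 counts), against 6.56, 20.1 and 10.7 CPM in PIL and 7.06, 11.6 and 4.40 CPM in Con. Its log2 fold change was -2.71 ± 0.48 (SE, adjusted p = 0.127) for GKO against PIL. The 10 kidney markers, from Slc34a1 of the proximal tubule to Nphs1 of podocytes, were read in the libraries at a summed 7775 to 14390 CPM. The 4 Y-linked genes summed to 0 CPM in all GKO and PIL libraries, against 136, 141 and 208 CPM in Con, although the labels call all mice female. Any difference of GKO or PIL from Con therefore cannot be told apart from this difference between the animals.

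One library stood apart for the interferon-stimulated genes. In Con replicate 2, 38 of the 41 genes had their highest level of the 9 libraries, whereas 11.0% of all genes tested did. The exceptions were Samd9l, highest in Con replicate 3, Epsti1, highest in PIL replicate 1, and Trim5, highest in PIL replicate 2. Relative to the mean of the other Con libraries, Con replicate 2 had a median ratio of 2.92 over the 41 genes, with a range of 0.787 to 8.98, and the median over all genes was 0.987. The ratio was above 3 for 19 of the 41 genes (46.3%), against 1.40% of all genes. Over 50 other tested interferon-stimulated genes, from a second list, it was above 3 for 15 (30%). The macrophage, monocyte and dendritic cell markers summed to 532 CPM in this library, against 381 and 203 CPM in the other Con libraries, and what sets it apart was not tested. For this reason each comparison with Con is given with and without Con replicate 2.

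**Figure D1:**
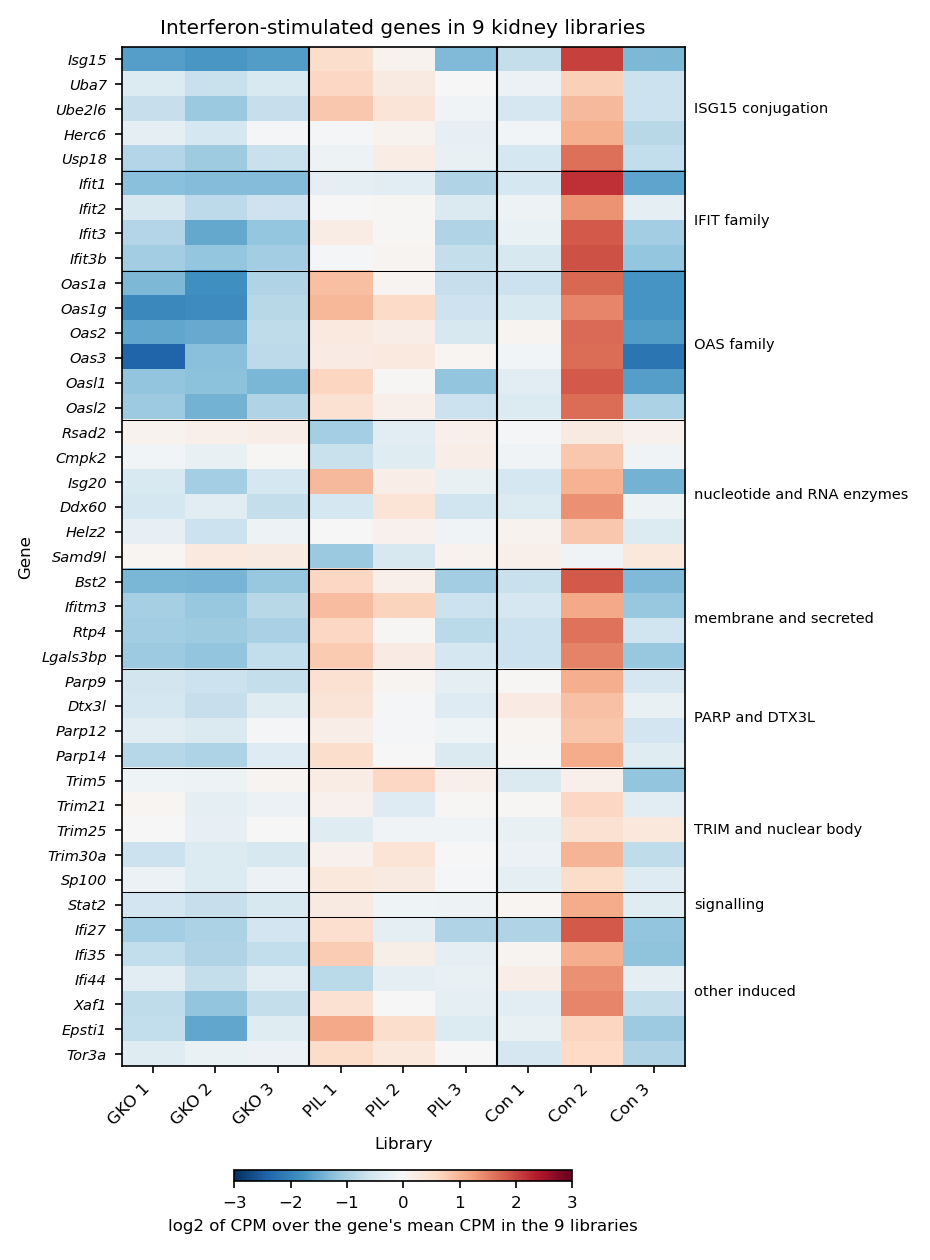
Level of each of the 41 genes (rows, grouped by role) in each of the 9 libraries (columns, GKO, PIL, Con), as log2 of its CPM over the gene's mean CPM. Con replicate 2 is the library with the highest level for 38 of the 41 genes, and the GKO columns lie mostly below each gene's mean.

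The genes differed widely in level. On the length-scaled FPKM values, averaged over the 9 libraries, Ifitm3 was highest at 127 FPKM, followed by Ifi27 at 76.6, Lgals3bp at 71.7 and Bst2 at 59.4 FPKM. Samd9l had 38.9 FPKM, Ifit3 31.3 and Isg15 16.5 FPKM. The lowest were Trim5 at 0.755, Ddx60 at 0.456 and Oas3 at 0.308 FPKM. The spread of single genes between libraries was large. Ifitm3 alone ranged between 54.9 and 262 FPKM, wider than the gap between the mean levels of Ifitm3 and Ifi27.

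Whether the loss of GSDMD altered the interferon-stimulated genes of pristane-treated kidneys was addressed by GKO against PIL. In this comparison 37 of the 41 genes had negative log2 fold changes (50.1% of all genes) and 4 positive ones (Rsad2, Cmpk2, Samd9l and Trim25; 49.9% of all genes), and the median was -0.81, against -0.00066 over all 14069 genes. For 26 of the 41 genes (63.4%) all GKO libraries lay below all PIL libraries, against 14.1% of all genes, and for 0 did they lie above (13.8% of all genes). The 41 genes were chosen with earlier results of these data known. They also vary together across the same libraries, so they are not separate observations. By edgeR, 0 of the 41 genes were called at an adjusted p under 0.05 (0% of all genes). The lowest adjusted p of the 41 was 0.182. At an unadjusted p under 0.05, 5 genes were lower (Uba7, Ube2l6, Oas1g, Ifitm3 and Epsti1; 13% of all genes) and 1 was higher (Samd9l; 7.93% of all genes). DESeq2 called 0 of the 41, where 4.99% of all genes were called lower and 1.25% higher. limma-voom with sample quality weights called 31 lower, against 22.8% of all genes, and 2 higher (Rsad2 and Samd9l), against 23.0%. These weights gave PIL replicate 2 a weight of 6.24 and PIL replicates 1 and 3 weights of 0.245 and 0.285, so PIL is represented in that fit mainly by 1 library.

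The PIL libraries were not alike. The summed level of the 41 genes was 1013, 976 and 1134 CPM in GKO, against 1765, 1503 and 1178 CPM in PIL, and 1243, 3359 and 1054 CPM in Con. By this sum PIL replicate 3 was close to the GKO libraries and PIL replicates 1 and 2 were higher. Over all genes, however, PIL replicate 1 was the library most apart. It was the highest of the 9 libraries for 28.9% of all genes and the lowest for 28.8%. For PIL replicate 3 these shares were 5.69% and 6.98%. The sum gives most weight to genes of high level, Samd9l among them. Each gene was also divided by its own mean over the 9 libraries. The median of these ratios over the 41 genes was 0.617, 0.525 and 0.646 in GKO. It was 1.24, 1.08 and 0.829 in PIL and 0.854, 2.17 and 0.594 in Con, so PIL replicate 3 lay above GKO. For 35 of the 41 genes the mean of PIL replicates 1 and 2 was above PIL replicate 3, with a median ratio of 1.495 (1.01 over all genes). Without PIL replicate 3, edgeR called 3 of the 41 genes for GKO against PIL: Epsti1 lower, Rsad2 and Samd9l higher. Among all genes, 12.2% were then called lower and 10.1% higher.

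Markers of macrophages, monocytes and dendritic cells followed the same order of libraries within PIL. The 21 markers of macrophages, monocytes and dendritic cells summed to 375, 300 and 430 CPM in GKO, against 2047, 1392 and 504 CPM in PIL and 381, 532 and 203 CPM in Con, and 0 of the 21 were at 0 in all libraries. For GKO against PIL edgeR called 0 of the 21 (0% of all genes). All 21 had negative log2 fold changes (50.1% of all genes), 16 with an unadjusted p under 0.05 (13% of all genes). DESeq2 called 13 lower in GKO (4.99% of all genes) and limma-voom with quality weights 16 (22.8% of all genes). Without PIL replicate 3, edgeR called 16 lower (12.2% of all genes). Of these 21 markers 11 were called higher in PIL against Con (4.48% of all genes), Trem2, Ms4a7 and Ccr2 among them. The number called was 4 without Con replicate 1, 7 without Con replicate 2, 4 without Con replicate 3, 6 without PIL replicate 1, 3 without PIL replicate 2, 16 without PIL replicate 3 and 6 without any 1 GKO library, and it was 0 with only the 6 PIL and Con libraries in the fit. Of all genes, 1.66%, 4.93% and 3.9% were called either way without Con replicates 1, 2 and 3. Without PIL replicates 1, 2 and 3 the shares were 5%, 1.59% and 25.7%. They were 3.9% to 4.17% without 1 GKO library and 0.939% with only the 6 libraries. DESeq2 called 14 markers higher (9.3% of all genes) and limma-voom 19 (23% of all genes). Summed neutrophil markers ranged from 6.38 to 11.7 CPM in GKO, against 14.7 to 99.0 CPM in PIL and 5.96 to 47.3 CPM in Con, and T and NK cell markers from 9.24 to 17.9 CPM in GKO, against 29.8 to 92.5 CPM in PIL and 12.3 to 37.4 CPM in Con. Markers of plasmacytoid dendritic cells, which are strong producers of type I interferon, summed to 12.2 to 15.1 CPM in GKO, against 15.3 to 40.0 CPM in PIL and 13.7 to 21.5 CPM in Con. GKO and PIL did not overlap for the neutrophil, T and NK cell and plasmacytoid dendritic cell sums. For the plasmacytoid dendritic cell sum, however, GKO replicate 3 (15.1 CPM) and PIL replicate 3 (15.3 CPM) were nearly equal. Of the 9 tested markers of these cells, 7 had negative and 2 positive log2 fold changes for GKO against PIL. All 8 tested neutrophil and all 14 tested T and NK cell markers were negative. edgeR called 0 in each of these lists. B and plasma cell markers summed to 41.4 to 97.5 CPM in GKO, against 90.9 to 702 CPM in PIL and 7.25 to 24.7 CPM in Con. Jchain made up most of this sum in GKO and PIL. It had 82.3, 38.6 and 91.3 CPM in GKO, against 539, 681 and 81.8 CPM in PIL and 20.4, 11.8 and 0.948 CPM in Con. Endothelial markers summed to 645 to 785 CPM in GKO, against 657 to 849 CPM in PIL and 628 to 775 CPM in Con. The 10 proximal tubule markers summed to 24057, 24819 and 26735 CPM in GKO, against 9198, 18890 and 24694 CPM in PIL and 37073, 35585.5 and 35121 CPM in Con. Kap made up much of the Con sums. It had 8155, 7273 and 9893 CPM in GKO, against 1039, 6647 and 9007 CPM in PIL and 21309, 23267 and 18343 CPM in Con. Of the 10 markers, 6 had positive and 4 negative log2 fold changes for GKO against Con. For PIL against Con, 3 were positive and 7 negative. The part of these cells in the levels of the interferon-stimulated genes was not tested. In whole kidney RNA, fewer cells of a type and less RNA per cell cannot be told apart. Within Con, replicate 2 was the highest and replicate 3 the lowest library for both sums. Against PIL, Con replicate 2 exceeded every library for the summed interferon-stimulated genes (3359 CPM) but not for the macrophage list (532 CPM).

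**Figure D2:**
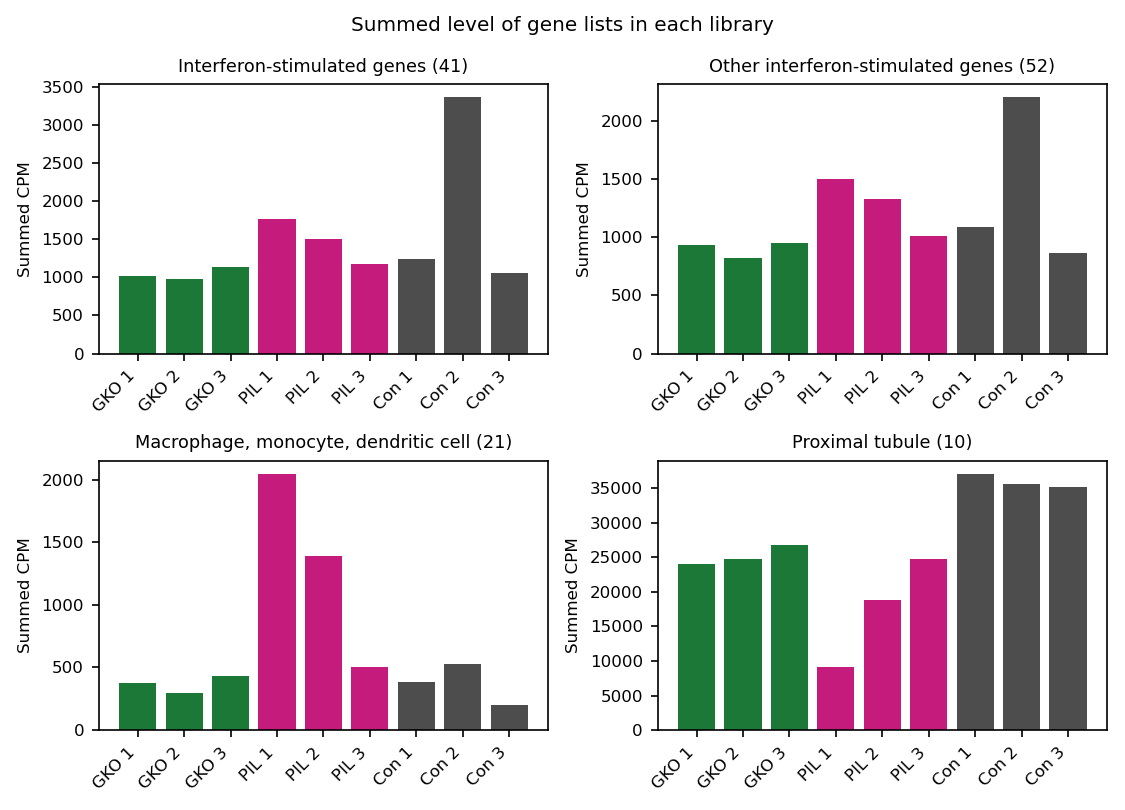
Summed CPM per library (bars) for the 41 interferon-stimulated genes, 52 other interferon-stimulated genes, 21 macrophage, monocyte and dendritic cell markers and 10 proximal tubule markers, in GKO, PIL and Con. The interferon-stimulated genes peak in Con replicate 2 at 3359 CPM, while the macrophage list peaks in PIL replicate 1 at 2047 CPM.

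The ISG15 conjugation genes encode the ubiquitin-like protein ISG15, its activating enzyme (Uba7), its conjugating enzyme (Ube2l6), its main mouse ligase (Herc6) and the protease that removes it and restrains the receptor (Usp18). Isg15 had 3.70, 3.48 and 3.61 CPM in GKO, against 16.7, 12.6 and 4.66 CPM in PIL and 7.06, 48.3 and 4.54 CPM in Con. Every GKO library lay below every other library, by a wide margin against PIL replicates 1 and 2 and a narrow one against PIL replicate 3 and Con replicate 3. The log2 fold change of Isg15 was -1.65 ± 0.84 (SE, adjusted p = 0.278) for GKO against PIL. Usp18 had 4.80, 4.24 and 5.55 CPM in GKO, against 7.91, 10.4 and 7.52 CPM in PIL and 6.10, 27.9 and 5.28 CPM in Con. GKO and PIL did not overlap, and the log2 fold change was -0.82 ± 0.57 (SE, adjusted p = 0.387). Ube2l6 had 8.64, 6.44 and 8.70 CPM in GKO, against 24.4, 18.4 and 12.9 CPM in PIL and 9.92, 27.6 and 8.94 CPM in Con, and Uba7 had 12.4 to 15.02 CPM in GKO, against 19.8 to 30.6 CPM in PIL and 12.7 to 32.3 CPM in Con. Both were without overlap between GKO and PIL. Herc6 ranged from 7.73 to 10.8 CPM in GKO, against 9.40 to 12.1 CPM in PIL and 6.30 to 23.4 CPM in Con, and its groups overlapped.

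The IFIT proteins bind viral RNA and limit its translation. Ifit3 had 29.9, 18.8 and 24.4 CPM in GKO, against 63.9, 56.6 and 29.2 CPM in PIL and 47.6, 196 and 26.8 CPM in Con. Of the PIL libraries only replicate 3 fell within the GKO range, and the log2 fold change for GKO against PIL was -1.04 ± 0.64 (SE, adjusted p = 0.341). Ifit1 had 8.71, 8.41 and 8.36 CPM in GKO, against 17.2, 16.3 and 11.0 CPM in PIL and 14.3, 95.1 and 6.91 CPM in Con. The GKO libraries had an SD of 0.188 CPM and lay below all PIL libraries, and the log2 fold change was -0.81 ± 0.78 (SE, adjusted p = 0.527). The error comes from a fit whose estimate of spread covers all 3 groups. Con replicate 2 had 8.98 times the mean Ifit1 level of the other Con libraries, the highest such ratio of the 41 genes. Ifit2 and Ifit3b also had all GKO below all PIL libraries.

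The OAS enzymes sense double-stranded RNA and make short oligoadenylates that activate RNase L, and the OAS-like proteins are their relatives. All 6 had negative log2 fold changes for GKO against PIL, from -1.92 (Oas1g) to -1.19 (Oasl2), with a median of -1.40, the lowest median of the roles. Oas1a had 4.53, 3.26 and 6.16 CPM in GKO, against 21.6, 12.3 and 7.15 CPM in PIL and 7.42, 38.4 and 3.39 CPM in Con. Its GKO libraries lay below the PIL libraries, with a log2 fold change of -1.56 ± 0.79 (SE, adjusted p = 0.279). Oasl2 had 14.9, 11.8 and 17.1 CPM in GKO, against 43.8, 35.2 and 20.5 CPM in PIL and 24.0, 102 and 16.6 CPM in Con, and its log2 fold change was -1.19 ± 0.61 (SE, adjusted p = 0.282). Oas1g had 1.03, 1.06 and 2.21 CPM in GKO, against 7.91, 5.85 and 2.56 CPM in PIL and 2.87, 10.9 and 1.15 CPM in Con. Oas3 had 0.411, 0.909 and 1.27 CPM in GKO, against 2.58, 2.68 and 2.26 CPM in PIL and 2.06, 6.94 and 0.474 CPM in Con. In contrast to most of the list, the PIL libraries agreed closely for Oas3, though at low levels. Of the 6, only Oasl1 overlapped between GKO and PIL.

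The membrane and secreted products include BST2 (tetherin, which holds budding virus at the cell surface), IFITM3 (which blocks viral fusion), RTP4 and the glycoprotein LGALS3BP. Bst2 had 20.8, 20.3 and 24.3 CPM in GKO, against 82.9, 59.3 and 26.0 CPM in PIL and 33.7, 193 and 21.5 CPM in Con, with a log2 fold change of -1.37 ± 0.74 (SE, adjusted p = 0.297) for GKO against PIL. Ifitm3 had 42.6, 39.0 and 47.8 CPM in GKO, against 162, 136 and 54.0 CPM in PIL and 59.7, 186 and 39.0 CPM in Con, with a log2 fold change of -1.44 ± 0.56 (SE, adjusted p = 0.205). Both had groups that did not overlap, and for both PIL replicate 3 was only a little above the highest GKO library. Lgals3bp had 94.7, 89.8 and 121 CPM in GKO, against 350, 238 and 139 CPM in PIL and 130, 568 and 92.3 CPM in Con, with a log2 fold change of -1.25 ± 0.62 (SE, adjusted p = 0.269). Rtp4 had 8.18 to 8.77 CPM in GKO, against 9.86 to 26.2 CPM in PIL and 11.0 to 53.2 CPM in Con. All 4 genes of this role were without overlap between GKO and PIL.

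STAT2, a subunit of ISGF3, is itself interferon-induced. Stat2 had 29.4, 27.3 and 31.6 CPM in GKO, against 53.0, 40.6 and 39.7 CPM in PIL and 45.9, 95.1 and 34.1 CPM in Con. All GKO libraries lay below all others, with a log2 fold change of -0.59 ± 0.32 (SE, adjusted p = 0.297) for GKO against PIL. PARP9 and DTX3L act as a complex, and PARP12 and PARP14 are further ADP-ribosyltransferases. Parp14 had 22.4, 21.1 and 31.0 CPM in GKO, against 58.5, 40.1 and 29.9 CPM in PIL and 41.2, 87.2 and 31.2 CPM in Con. GKO replicate 3 was above PIL replicate 3, so its groups overlapped, and the log2 fold change was -0.79 ± 0.38 (SE, adjusted p = 0.262). All 4 genes of the PARP and DTX3L role had negative log2 fold changes, from -0.79 to -0.28, and only Parp9 was without overlap.

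The TRIM genes and Sp100 had smaller fold changes. TRIM21 is a cytosolic antibody receptor, TRIM25 a ubiquitin ligase of RNA sensing, TRIM30A a mouse protein of the family of TRIM5, which in primates binds retroviral capsids, and SP100 a component of nuclear bodies. Trim30a had 12.6, 14.7 and 14.0 CPM in GKO, against 21.4, 26.0 and 19.3 CPM in PIL and 17.5, 39.5 and 11.7 CPM in Con. Trim5 had 2.54, 2.499 and 2.94 CPM in GKO, against 3.20, 4.24 and 3.08 CPM in PIL and 2.06, 3.06 and 1.22 CPM in Con. For both genes GKO and PIL did not overlap, and the log2 fold changes were -0.69 ± 0.37 (SE, adjusted p = 0.296) for Trim30a and -0.40 ± 0.34 (SE, adjusted p = 0.473) for Trim5. The 5 genes of this role ranged from -0.69 to 0.12, with Trim21 (9.39 to 11.8 CPM in GKO, against 8.77 to 12.6 CPM in PIL and 9.21 to 17.4 CPM in Con) close to even.

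Among the nucleotide and RNA enzymes, some genes went against the rest of the list. RSAD2 (viperin) turns CTP into a terminator of viral RNA synthesis, and Cmpk2, its genomic neighbour, encodes a mitochondrial nucleotide kinase. Rsad2 had 48.4, 49.4 and 51.1 CPM in GKO, against 22.1, 36.0 and 50.1 CPM in PIL and 43.0, 54.0 and 49.0 CPM in Con. PIL replicates 1 and 2 were thus the lowest of the 9 libraries, and the log2 fold change was 0.46 ± 0.24 (SE, adjusted p = 0.289) for GKO against PIL. Samd9l, whose human relative restricts cell growth and poxviruses and which is described here because its values stood out, had 222, 261 and 256 CPM in GKO, against 98.3, 154 and 229 CPM in PIL and 236, 197 and 265 CPM in Con. Cmpk2 had 28.0, 25.2 and 30.2 CPM in GKO, against 18.7, 23.1 and 33.9 CPM in PIL and 27.6, 52.2 and 27.7 CPM in Con. For these 3 genes PIL replicate 1 was the lowest and PIL replicate 3 the highest PIL library, unlike most of the list. PIL replicate 1 was the lowest of the 9 libraries for 28.8% of all genes. Without PIL replicate 3, edgeR called Rsad2 (log2 fold change 0.78, adjusted p = 0.0275) and Samd9l (0.97, adjusted p = 0.0178) higher in GKO than in PIL. Of all genes, 10.1% were then called higher.

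The other enzymes of this role degrade or unwind RNA. Isg20, an exonuclease, had 3.43, 2.35 and 3.28 CPM in GKO, against 9.31, 5.49 and 4.06 CPM in PIL and 3.31, 9.71 and 1.76 CPM in Con, without overlap between GKO and PIL and with a log2 fold change of -1.06 ± 0.57 (SE, adjusted p = 0.295). Helz2, a helicase that acts as a transcriptional coactivator, had 21.4 to 30.04 CPM in GKO, against 30.7 to 36.3 CPM in PIL and 24.9 to 58.3 CPM in Con. Ddx60, an RNA helicase, had 2.41 to 3.18 CPM in GKO, against 2.63 to 5.31 CPM in PIL and 3.01 to 10.2 CPM in Con, with overlap.

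Of the remaining induced genes, Ifi27, Ifi35, Ifi44, Xaf1, Epsti1 and Tor3a, all 6 had negative log2 fold changes for GKO against PIL, from -1.35 (Epsti1) to -0.04 (Ifi44). Ifi27, a small membrane protein, had 55.8, 58.2 and 75.7 CPM in GKO, against 159, 92.9 and 59.9 CPM in PIL and 60.1, 402 and 49.4 CPM in Con, with a log2 fold change of -0.72 ± 0.72 (SE, adjusted p = 0.538). Ifi44 had 20.2, 15.5 and 20.1 CPM in GKO, against 14.6, 21.1 and 21.7 CPM in PIL and 29.1, 66.0 and 20.6 CPM in Con, with a log2 fold change of -0.04 ± 0.38 (SE, adjusted p = 0.955). The groups overlapped for both. Epsti1 had 4.05, 2.27 and 5.29 CPM in GKO, against 14.8, 9.66 and 5.12 CPM in PIL and 5.81, 10.5 and 3.18 CPM in Con, so that GKO replicate 3 was just above PIL replicate 3. Ifi35, Xaf1 and Tor3a, the last a torsin ATPase, were without overlap.

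**Figure D3:**
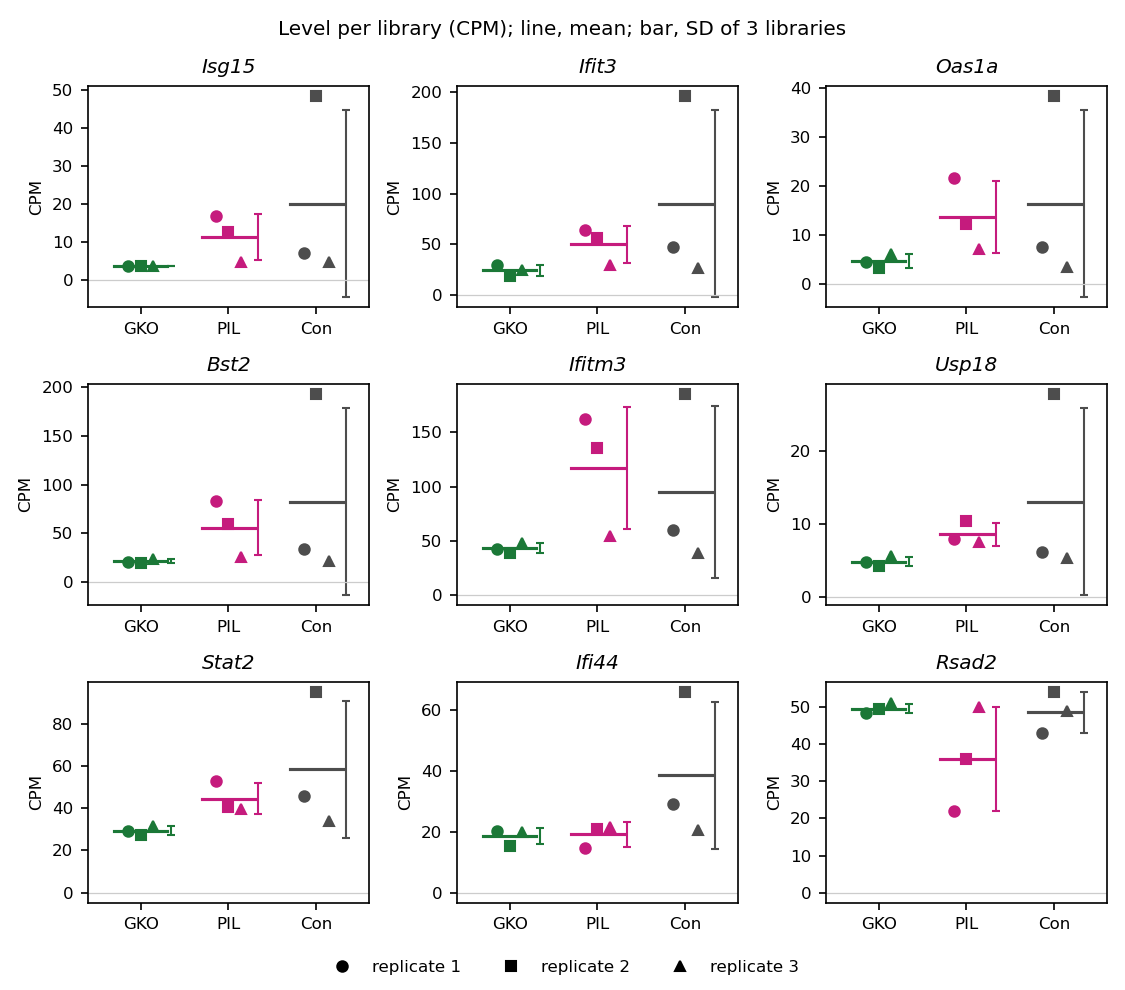
CPM of 9 of the genes in each library of GKO, PIL and Con (points, symbols by replicate), with the mean (line) and SD of 3 libraries (bar). Con replicate 2 is the highest point of every panel, the GKO points lie close together, and for Rsad2 PIL replicates 1 and 2 are the lowest points.

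Whether pristane altered the genes in WT kidneys was addressed by PIL against Con. Log2 fold changes were positive for 10 of the 41 genes (51.1% of all genes) and negative for 31 (48.9% of all genes). The median was -0.35 (0.01 over all genes), in a range of -1.38 (Ifit1) to 0.73 (Trim5). edgeR called 0 of the 41 genes at an adjusted p under 0.05, while 4.48% of all genes were called higher and 3.14% lower. At an unadjusted p under 0.05, 0 were higher (15.4% of all genes) and 1, Ifi44, was lower (12.2% of all genes). DESeq2 called 1 of the 41 genes lower (Ifi44, adjusted p = 0.0492; 6.94% of all genes) and 0 higher (9.30% of all genes). limma-voom with quality weights, with all 9 libraries, called 5 higher and 3 lower, against 23.0% and 21.6% of all genes, and turned the direction of the list, with 27 of the 41 log2 fold changes positive, 14 negative and a median of 0.24. Only Trim5 had all PIL libraries above all Con libraries (13.4% of all genes) and 0 genes had all below (11.7%). Without PIL replicate 3, edgeR called Rsad2 (log2 fold change -0.75, adjusted p = 0.0246) and Samd9l (-0.89, adjusted p = 0.0168) lower in PIL than in Con, where 12.4% of all genes were called lower.

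The signs of the edgeR fit also turned without Con replicate 2. Without it, 35 of the 41 genes had a positive log2 fold change, the median was 0.59, and 11 genes had all PIL libraries above both remaining Con libraries (Isg20, Lgals3bp, Oas3, Sp100, Tor3a, Trim30a, Trim5, Uba7, Ube2l6, Usp18 and Xaf1), or 26.8% of the 41 against 21% of all genes. Samd9l had all PIL below (19.4% of all genes). edgeR then called 1 of the 41 genes, Tor3a (log2 fold change 0.98, adjusted p = 0.0338), where 2.37% of all genes were called higher. The log2 fold change of Isg15 was -0.81 ± 0.78 (SE, adjusted p = 0.523) with all libraries and 0.96 ± 0.47 (SE, adjusted p = 0.212) without Con replicate 2. That of Ifit1 was -1.38 ± 0.77 (SE, adjusted p = 0.270) with all libraries and 0.49 ± 0.31 (SE, adjusted p = 0.326) without it. That of Ifitm3, positive in both fits, was 0.31 ± 0.55 (SE, adjusted p = 0.739) and 1.25 ± 0.41 (SE, adjusted p = 0.102). The direction of the list for PIL against Con therefore depended on this library and on the method. In limma-voom, Con replicates 1, 2 and 3 had weights of 2.41, 0.512 and 0.399. PIL replicates 1, 2 and 3 had weights of 0.245, 6.24 and 0.285. What turned the signs under limma-voom was not tested.

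Some genes kept their sign in both fits. Trim5 had a log2 fold change of 0.73 ± 0.34 (SE, adjusted p = 0.200) with all libraries and 1.09 without Con replicate 2. Ifi44 had -1.01 ± 0.38 (SE, adjusted p = 0.126) with all libraries and -0.38 without Con replicate 2, and Rsad2 had -0.43 ± 0.24 (SE, adjusted p = 0.273) and -0.36. Without Con replicate 2 the 6 negative genes were Samd9l, Rsad2, Cmpk2, Trim25, Ifi44 and Dtx3l.

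In the remaining genes of the panel the sign for PIL against Con changed in all but 1 case. With all libraries the log2 fold changes were -0.85 ± 0.63 (SE) for Ifit3, -0.25 ± 0.75 for Oas1a, -0.52 ± 0.59 for Oasl2, -0.60 ± 0.55 for Usp18, -0.39 ± 0.32 for Stat2, -0.56 ± 0.72 for Bst2, -0.71 ± 0.72 for Ifi27, -0.04 ± 0.37 for Trim30a, -0.31 ± 0.38 for Parp14 and -0.12 ± 0.61 for Lgals3bp, while Isg20 had 0.36 ± 0.56. Without Con replicate 2 they were 0.42 for Ifit3, 1.34 for Oas1a, 0.71 for Oasl2, 0.59 for Usp18, 0.15 for Stat2, 1.02 for Bst2, 0.92 for Ifi27, 0.61 for Trim30a, 0.24 for Parp14, 1.12 for Lgals3bp and 1.31 for Isg20. None of these passed the test in either fit.

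**Figure D4:**
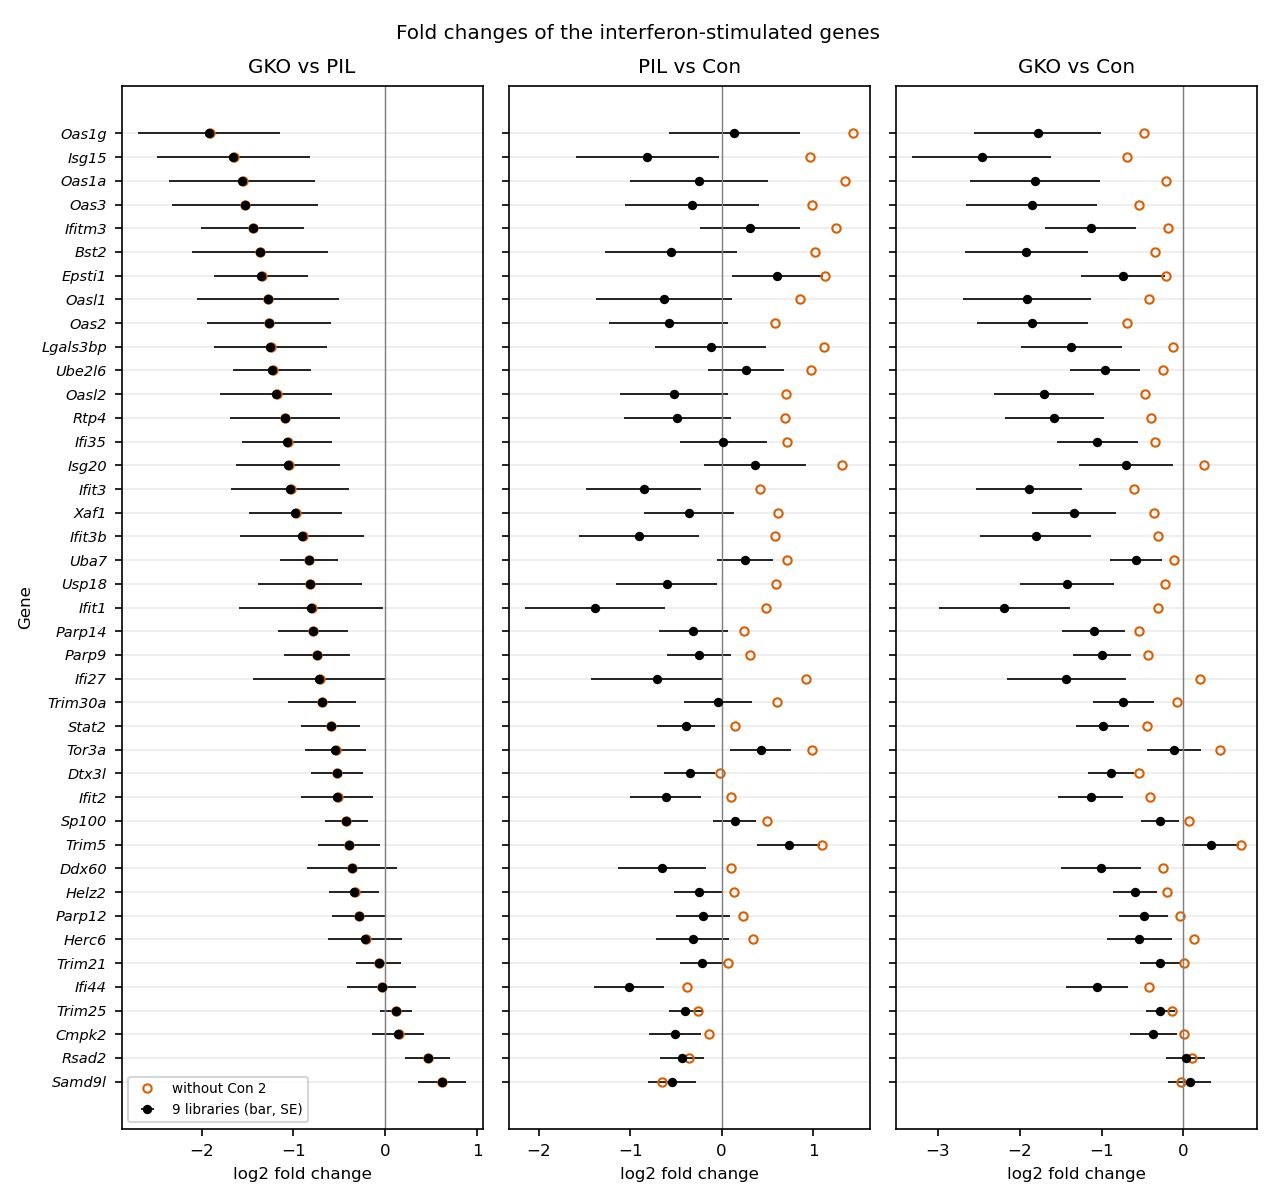
Log2 fold change of each of the 41 genes (rows) for GKO against PIL, PIL against Con and GKO against Con, with all 9 libraries (filled points, bars are SE) and without Con replicate 2 (open points). Without that library 35 genes are positive for PIL against Con, while the values for GKO against PIL hardly move.

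GKO was also set against Con, a comparison that shares the GKO libraries with GKO against PIL and the Con libraries with PIL against Con. Here 38 of the 41 genes were lower in GKO by the sign of the log2 fold change (51.7% of all genes), and Rsad2, Samd9l and Trim5 were higher (48.3% of all genes). The median was -1.05 (-0.01 over all genes), in a range of -2.47 (Isg15) to 0.34 (Trim5). edgeR called 0 of the 41 at an adjusted p under 0.05, against 1.55% of all genes called higher and 1.46% called lower. At an unadjusted p under 0.05, 21 were lower, against 6.93% of all genes, and 0 higher (7.68%). DESeq2 called 3 lower (Oas2, Oasl2 and Stat2; 3.18% of all genes) and 0 higher (3.28% of all genes), and limma-voom with quality weights 4 lower (Dtx3l, Parp14, Parp9 and Stat2; 7.46% of all genes) and 0 higher (8.20% of all genes). For 10 genes all GKO libraries lay below all Con libraries (Dtx3l, Ifi44, Ifit2, Isg15, Parp14, Parp9, Rtp4, Stat2, Ube2l6 and Xaf1), or 24.4% against 11.5% of all genes. The same 10 genes lay below when Con replicate 2 was left out, where 18.3% of all genes did, and Tor3a and Trim5 then lay above (19.7% of all genes).

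The sizes, however, rested on Con replicate 2. With all libraries the median was -0.64 under limma-voom with quality weights. Without Con replicate 2 the edgeR median for GKO against Con was -0.25, with 32 genes negative and 9 positive, and edgeR called 0 of the 41 (1.26% of all genes called lower). The log2 fold change of Isg15 was -2.47 ± 0.85 (SE, adjusted p = 0.195) with all libraries and -0.68 without Con replicate 2, and that of Stat2 was -0.99 ± 0.32 (SE, adjusted p = 0.174) and -0.44. The other genes of the panel with all libraries had -2.19 ± 0.80 (SE, Ifit1), -1.89 ± 0.65 (Ifit3), -1.81 ± 0.80 (Oas1a), -1.70 ± 0.61 (Oasl2), -1.42 ± 0.57 (Usp18), -1.92 ± 0.75 (Bst2), -1.05 ± 0.38 (Ifi44), -1.43 ± 0.73 (Ifi27), -1.13 ± 0.56 (Ifitm3), -0.73 ± 0.37 (Trim30a), -1.10 ± 0.38 (Parp14), -1.37 ± 0.62 (Lgals3bp) and -0.70 ± 0.57 (Isg20), with Rsad2 at 0.03 ± 0.24 and Trim5 at 0.34 ± 0.35. Their adjusted p-values were above 0.05 throughout. Without Con replicate 2 the values were -0.32 for Ifit1, -0.61 for Ifit3, -0.21 for Oas1a, -0.47 for Oasl2, -0.23 for Usp18, -0.34 for Bst2, -0.42 for Ifi44, 0.21 for Ifi27, -0.19 for Ifitm3, -0.082 for Trim30a, -0.54 for Parp14, -0.13 for Lgals3bp, 0.26 for Isg20, 0.11 for Rsad2 and 0.70 for Trim5, so that all but Trim5 and Rsad2 were either smaller in size or, for Ifi27 and Isg20, turned in sign. When Con replicate 3, in which perirenal fat markers summed to 111 CPM against 0.747 and 15.4 CPM in the other Con libraries, was left out, edgeR called 1 of the 41, Oas2 (log2 fold change -2.34, adjusted p = 0.0397; 1.22% of all genes called lower), and 29 genes had all GKO below both remaining Con libraries (22.6% of all genes).

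The rest of the pathway was read from lists beside these genes. Of 21 interferon ligands, 17 had 0 counts in all libraries and 0 passed the filter, and their summed level was at most 0.301 CPM in any library, so that ligand RNA was hardly detectable at this depth. Of 18 receptor and signalling genes, 0 were called for GKO against PIL (0% of all genes). For PIL against Con, 1 was called higher (4.48% of all genes) and 0 lower (3.14%). For GKO against Con, 1 was called higher (1.55% of all genes) and 0 lower (1.46%). A single call among 18 genes does not set the list apart from all genes. Il10rb, a receptor chain shared by several cytokines and interferon lambda, had 33.2, 32.1 and 31.4 CPM in GKO, against 39.9, 40.0 and 33.6 CPM in PIL and 24.8, 27.6 and 22.4 CPM in Con, and rose in PIL against Con (log2 fold change 0.60 ± 0.12, adjusted p = 0.0203). Jak2, a kinase of the interferon gamma receptor, had 51.8, 55.2 and 61.6 CPM in GKO, against 38.7, 44.4 and 45.9 CPM in PIL and 37.2, 41.6 and 35.4 CPM in Con, and rose in GKO against Con (log2 fold change 0.56 ± 0.12, adjusted p = 0.0369). The call of Il10rb was lost without Con replicate 1 (adjusted p = 0.0829), without Con replicate 3 (0.0592), without PIL replicate 2 (0.0854) and with only the 6 PIL and Con libraries (0.0988), and without the other libraries its adjusted p was 0.00652 to 0.0455. The call of Jak2 was lost without any 1 Con or GKO library (adjusted p = 0.0527 to 0.164), without PIL replicate 2 (0.0684) and with the replicate number as a block (0.0514). Neither gene had its highest level in Con replicate 2. Of 50 other tested interferon-stimulated genes, 0 were called in any comparison. Among all genes, 0% were called for GKO against PIL, 7.62% for PIL against Con and 3.01% for GKO against Con. The medians of the 50 genes were -0.63 for GKO against PIL (46 negative, 4 positive), -0.04 for PIL against Con (27 negative, 23 positive) and -0.63 for GKO against Con (48 negative, 2 positive).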

How the data were processed

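The authors isolated total RNA from kidneys with TRIzol, read paired ends on a Novaseq6000 instrument, mapped them to mm10 (Hisat2) and obtained gene counts with HTSeq. TopHat2 is also named, and tool versions are not given in the sources used here. The deposited counts are whole reads per gene with no normalization, and the deposited FPKM values are those counts scaled for gene length and depth. The counts were filtered with edgeR's filterByExpr, scaled by TMM and compared in all 9 libraries with the robust quasi-likelihood test of edgeR 4.0.16 in R 4.3.3, with Benjamini-Hochberg adjustment over 14069 genes. Genes with an adjusted p under 0.05 were called. FPKM was used only to order genes by level. Totals were 13311063 to 16299328 counts per library, and the chi-square statistic between replicates of a group, divided by its degrees of freedom, was 8.10 to 148, where counting error alone would give about 1.

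The members and lists were chosen with earlier results of these data known. Fold changes with errors were fixed for a panel of Isg15, Ifit1, Ifit3, Oas1a, Oasl2, Mx2, Rsad2, Usp18, Stat2, Bst2, Ifi44, Ifi27, Ifitm3, Trim5, Trim30a, Parp14, Lgals3bp and Isg20, for Gsdmd and for any member called, and other members were given by values, counts and ranges. From the lists called genes were named, at most 4 per list and comparison. Kap and Jchain were named as well, because each made up a large part of its list's sum. Some listed genes are not reported here by name. Groups follow the sample titles. The 3 comparisons were also run with other scaling (RLE, upper quartile), without the low-count filter, with a minimum of 10 counts per library, with the replicate number as a block, with DESeq2 1.42.0, limma-voom (limma 3.58.1) with sample quality weights, only the 6 libraries compared, and each library left out in turn. Counts of genes without overlap with a library left out were added after seeing the data. The fitting was tested on simulated data. Promoter stretches are from RefSeq (GRCm38.p6).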

Additional observations from a re-analysis of the deposited data

How the results depend on the processing

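The number of the 41 genes called stayed at 0 in all 3 comparisons under RLE scaling, upper-quartile scaling, no filter, at least 10 counts in every library, only the 6 libraries compared, and the replicate block. Under these settings 0.939% to 8.59% of all genes were called for PIL against Con. The shares were 0% to 0.0213% for GKO against PIL and 2.21% to 5.62% for GKO against Con. For PIL against Con it was 1 with DESeq2 (16.2% of all genes) and 8 with limma-voom with sample quality weights (44.6%). For GKO against PIL it was 33 with limma-voom (45.8% of all genes). For GKO against Con it was 3 with DESeq2 (6.46% of all genes) and 4 with limma-voom (15.7%). Leaving out single libraries gave 0 to 2 called genes for PIL against Con (1.59% to 25.7% of all genes). It gave 0 to 3 for GKO against PIL (0% to 22.3%) and 0 to 1 for GKO against Con (0.731% to 4.97%).

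Among all genes, 1072 were called for PIL against Con, 0 for GKO against PIL and 423 for GKO against Con. With DESeq2 these counts were 2285, 878 and 909, with limma-voom 6271, 6448 and 2202, and with only the 6 libraries compared 130, 1 and 766. Without single libraries they ran from 226 to 3684 for PIL against Con, from 0 to 3204 for GKO against PIL and from 105 to 705 for GKO against Con. The causes were not tested. The lowest and highest of the counts for PIL against Con came without PIL replicate 2 and without PIL replicate 3, and the highest for GKO against PIL also came without PIL replicate 3.

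Without single libraries the median log2 fold change of the 41 genes ran from -0.59 to 0.59 for PIL against Con and from -1.36 to -0.25 for GKO against Con, with the highest value in both without Con replicate 2. For PIL against Con the log2 fold change then ran from -1.29 to 0.96 for Isg15, from -1.88 to 0.49 for Ifit1, from -1.29 to 0.42 for Ifit3, from -0.75 to 1.34 for Oas1a, from -0.93 to 0.71 for Oasl2, from -0.98 to 0.59 for Usp18, from -0.67 to 0.15 for Stat2, from -1.02 to 1.02 for Bst2, from -1.16 to 0.92 for Ifi27, from -0.36 to 0.61 for Trim30a, from -0.60 to 0.24 for Parp14, from -0.53 to 1.12 for Lgals3bp, from -0.068 to 1.25 for Ifitm3 and from -0.049 to 1.31 for Isg20. For GKO against PIL it ran from -0.21 to 0.079 for Ifi44, and for GKO against Con from -0.054 to 0.11 for Rsad2, from -1.87 to 0.21 for Ifi27 and from -1.10 to 0.26 for Isg20.

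Further sign changes for PIL against Con were Trim30a at 0.017 under upper-quartile scaling and, under limma-voom, Isg15 at 0.46, Ifit3 at 0.0070, Oas1a at 0.51, Oasl2 at 0.28, Usp18 at 0.43, Bst2 at 0.48, Ifi27 at 0.24, Trim30a at 0.44 and Lgals3bp at 0.59. Same-numbered libraries did not go together throughout. The correlations of their deviations were -0.0262, 0.188 and 0.289 for PIL with Con, 0.0945, -0.133 and -0.0317 for GKO with PIL, and -0.000935, -0.138 and -0.0423 for GKO with Con. For differently numbered libraries they ran from -0.338 to 0.248 for PIL with Con. They ran from -0.124 to 0.145 for GKO with PIL and from -0.156 to 0.184 for GKO with Con. With the replicate block, 962, 3 and 347 of all genes were called for PIL against Con, GKO against PIL and GKO against Con. Under the block Oas1a had 0.079, Trim30a 0.079 and Lgals3bp 0.15 for PIL against Con, and Ifi44 had 0.0028 for GKO against PIL.

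With 3 libraries per group, an exact test on a single gene cannot give a p below 0.1.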
